A study of Mus musculus with 6 samples.

Results

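Semaphorins are secreted, membrane-bound or lipid-anchored guidance proteins that share a sema domain. Plexins are their signalling receptors, and the neuropilins Nrp1 and Nrp2 are the binding co-receptors through which most class 3 semaphorins reach the type A plexins. In the mouse hindbrain, facial branchiomotor neurons carry neuropilins, and Sema3a acts on their axons while the growth factor Vegfa, another neuropilin ligand, acts on the migration of their cell bodies. Members were all probe sets (groups of array probes that read 1 transcript) annotated with a single gene symbol that starts with Sema3, Sema4, Sema5, Sema6, Sema7 or Plxn, or equals Nrp1 or Nrp2. The rule gave 48 of the 22626 probe sets tested, for 26 of the 12393 genes. They comprised 12 probe sets of 5 class 3 semaphorins, 21 of 12 membrane semaphorins (classes 4 to 7), 4 of the 2 neuropilins and 11 of 7 plexins. Sema3d, Sema3g, Sema4c, Plxna4 and Plxnb1 had no probe set under the rule and were not analysed here.

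The tissue was rhombomere 4, the hindbrain segment whose identity Hoxb1 sets, dissected from mouse embryos at stage E10.5 of gestation and hybridised to Affymetrix 430A arrays. There were 3 arrays from Hoxb1 mutant embryos and 3 from wild-type (normal) embryos. Each array read an independent pool of segments from several embryos, and the labels place branchial arch tissue in the dissection too. No source used here gives the allele, its zygosity or the strain. The comparison asks which transcripts of this segment differ when Hoxb1 is mutated.

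Values are array intensities as deposited, on a linear scale, given as mean ± SD of 3 arrays, and brightness was not compared between probe sets. Differences are mutant minus wild type on log2(intensity + 16), with the standard error (SE) and 95% interval of the limma fit, a scale that understates the change of dim probe sets. A value counted as above background where it exceeded 61.5, the 95th percentile of 27 control probe sets for bacterial transcripts. Hoxb1 itself gave 60.8, 35.3 and 50.03 in mutants, against 341, 378 and 588 in wild type. Wild type was thus at least 6.88-fold higher, measured against the background level, although the limma adjusted p was 0.0695. No source used here says whether its probes lie in the mutated part. Wild-type replicates 2 and 3 stood apart in the signal of 18S ribosomal RNA, whose mean log2 value was 12.1 and 11.3 there and lay between 5.99 and 6.81 elsewhere. Markers of neurons, neural progenitors, crest and primitive red cells were above background on all arrays, as were those of cranial mesenchyme except Alx4 and of endothelium except Tie1, each above it on 4 of 6 arrays. Of the head muscle markers, Tcf21 was above it on all arrays, Msc on 4 of 6, and Musk and Myf5 on none. The tissue was thus mixed. In such bulk tissue, fewer cells of a type and less RNA per cell cannot be told apart.

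No semaphorin, plexin or neuropilin passed the test between mutant and wild type. In limma, 0 of the 48 probe sets passed an adjusted p of 0.05, as did 0% of all probe sets tested, and the lowest adjusted p of a member was 0.833. With 3 arrays against 3, an exact permutation test of a single probe set cannot go below p = 0.1, so none was run. At an unadjusted p under 0.05 there were likewise 0 of 48, where 5.76% of all probe sets tested had one. Mutant means were higher in 24 probe sets and lower in 24. The median log2 difference was -0.02 over the members and -0.02 over all probe sets tested. With the dimmest 1 in 3 probe sets left out, 29 members remained with a median of -0.12, against -0.01 over all probe sets kept, and with the 18S signal as a covariate the median of all 48 was 0.07. Among members above background on all arrays, single differences ran from -0.70 for Sema3f to 0.25 for Nrp1. Without mutant replicate 1, 4 of the 48 (of Sema3b, Sema3f, Plxna1 and Sema7a) were lower at an unadjusted p under 0.05, where 8.73% of all probe sets tested reached it in either direction. Without wild-type replicate 1, 3 were lower (of Sema6a, Sema6b and Sema6c), where 6.11% of all probe sets tested reached it. That fit keeps only the wild-type arrays of raised 18S signal, so genotype and 18S signal cannot be told apart in it. With the 18S signal as a covariate on all arrays, these probe sets gave log2 differences of 0.20, -0.13 and 0.11.

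The intervals bound how large a change these arrays leave room for in the fit without a covariate. Of the 29 member probe sets above background on all arrays, 28 had a 95% interval inside a 2-fold difference in either direction, and the exception was one of Sema3f. With the 18S signal as a covariate, log2 differences of these probe sets moved by up to 0.51, and Sema6d gave 0.36 (SE 0.34). The intervals of that fit were not counted against the 2-fold limits. A further 6 probe sets were above background on some arrays, and 13 on none, so that no level can be given for those. By gene, 20 of the 26 had a probe set above background on all arrays, and Sema4a, Sema4f, Sema6b and Plxnb3 were above it on some. The remaining 2 were Sema3b and Sema3e. Sema3b encodes a secreted ligand, and Sema3e one that binds Plxnd1 without a neuropilin. Both lay below 61.5 on every array in each of their 6 probe sets.

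**Figure D1:**
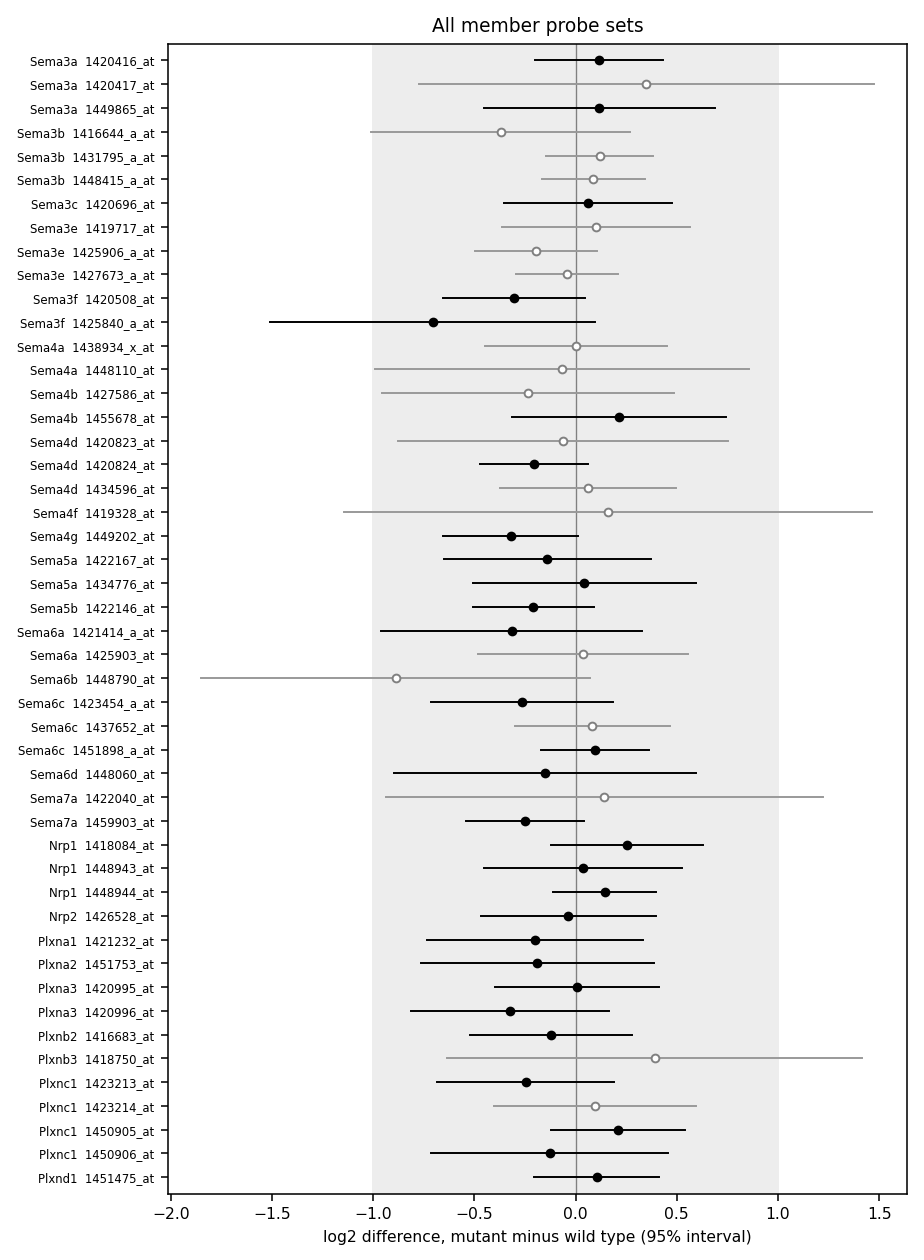
Log2 difference, mutant minus wild type, with its 95% limma interval, for each of the 48 member probe sets. Filled points were above background on all 6 arrays, open points were not, and the shaded band marks a 2-fold difference in either direction; all 48 intervals include 0.

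Groups that did not overlap were found in 7 member probe sets, 14.6% of them, against 12% of all probe sets tested. Mutants were lower in 6, namely both probe sets of Sema3f and 1 each of Sema4g, Sema4d, Sema7a and Sema3e, where 7.08% of all probe sets tested had such a separation. Mutants were higher in 1, a probe set of Nrp1, against 4.88% of all probe sets tested.

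Among the secreted ligands, Sema3f, a repellent that signals mainly through Nrp2, had the clearest separation of the groups. Its brighter probe set read 79.0, 203 and 195 on the mutant arrays, against 216, 239 and 305 on the wild-type arrays. The log2 difference was -0.70 (SE 0.34, interval -1.51 to 0.10), with a limma adjusted p of 0.833. Every mutant array was below every wild-type array, and most of the difference came from mutant replicate 1, without which it was -0.31. The dimmer probe set read 176, 137 and 124 in mutants and 178, 190.4 and 179 in wild type, a log2 difference of -0.31 (SE 0.15, interval -0.66 to 0.04). Here mutant replicate 1 was the highest mutant array, only just under the lowest wild-type one, so the array that sat lowest in one probe set sat highest in the other. Without that array the dimmer probe set gave -0.44, with a limma adjusted p of 0.534.

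Sema3a, the prototype growth cone repellent and a ligand of Nrp1, had overlapping groups in the probe sets above background. Its brightest probe set read 534, 572 and 475 in mutants and 449.6, 461 and 547 in wild type. The next read 335, 383 and 247 in mutants and 315, 366 and 213 in wild type. Neither had a group wholly above the other. The log2 differences were 0.12 (SE 0.13) and 0.12 (SE 0.24), and the first interval, -0.20 to 0.43, leaves room for a level between 0.870 and 1.35 times that of wild type. The remaining probe set of Sema3a was not above background on any array. Sema3c, a ligand of both neuropilins that acts in the cardiac outflow tract, read 285, 207 and 181 in mutants, against 204, 209 and 219 in wild type. Its mutant arrays lay on both sides of the narrow wild-type range, and the log2 difference was 0.06 (SE 0.17).

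**Figure D2:**
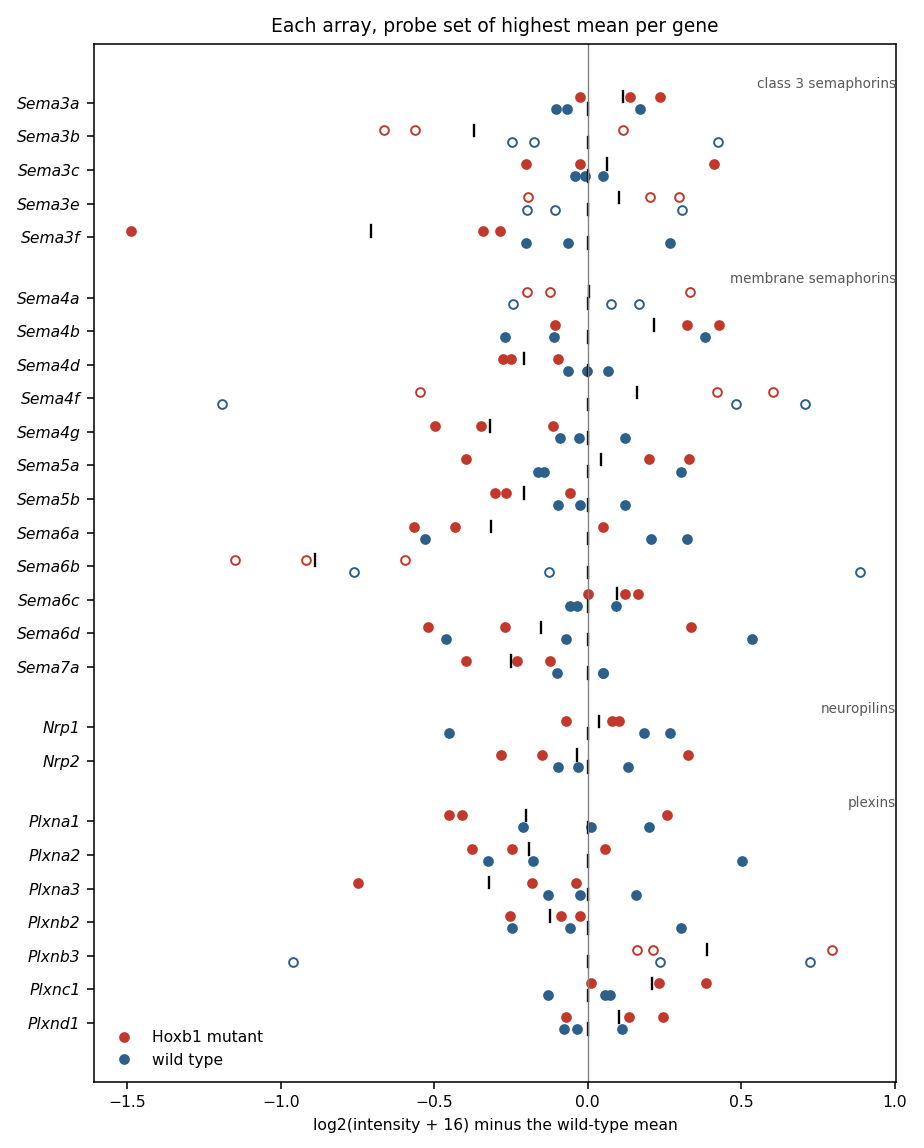
Values on each array as log2(intensity + 16) minus the wild-type mean, for the probe set of highest mean of each of the 26 genes, with mutant arrays in red above wild-type arrays in blue and black ticks at the group means. Open points mark probe sets not above background on all arrays; mutant and wild-type points overlap in all genes but Sema3f, Sema4d, Sema4g and Sema7a.

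The membrane semaphorins act at short range, mostly through plexins without a neuropilin, and 3 of their probe sets separated the groups. Sema4g, a class 4 semaphorin that acts through Plxnb2 in the cerebellum, read 236, 264 and 313 in mutants, against 318, 371 and 333 in wild type. Its log2 difference was -0.32 (SE 0.14, interval -0.65 to 0.01). Sema4d, the immune semaphorin CD100 and a ligand of type B plexins, read 382, 342 and 336 in mutants and 429, 390.4 and 409 in wild type. That was a log2 difference of -0.21 (SE 0.11, interval -0.47 to 0.06). The other probe sets of Sema4d were not above background on any array. Sema7a, held in the membrane by a lipid anchor and bound by Plxnc1 and by integrins, read 222, 205 and 181 in mutants and 252, 226 and 252 in wild type. The log2 difference was -0.25 (SE 0.12, interval -0.54 to 0.04), and its other probe set was below background. In Sema4g, Sema4d and Sema7a alike, the gap between the nearest mutant and wild-type arrays was small beside the spread within a group, and the limma adjusted p was 0.833 for each.

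Sema6b, a ligand of type A plexins, was near or below background on most arrays. It read 27.7, 21.2 and 38.6 in mutants, all below background, and 32.7, 136 and 59.6 in wild type, where only replicate 2 exceeded 61.5. The groups overlapped, and no lower bound on the fold can be given, since only 1 wild-type array was above background. The log2 difference was -0.89 (SE 0.40, limma adjusted p = 0.833). It was -0.13 with the 18S signal as a covariate, and -0.13 without wild-type replicates 2 and 3, the arrays of raised 18S signal.

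Of the other class 6 genes, Sema6a, which marks boundary cap cells at motor exit points and binds type A plexins, read 176, 109.5 and 122 in mutants and 113, 198 and 216 in wild type. The log2 difference was -0.32 (SE 0.27) with overlapping groups. Sema6d, a ligand of Plxna1, read 259.9, 166 and 137 in mutants and 143, 301 and 192 in wild type, a difference of -0.15 (SE 0.31). Sema6c had probe sets on both sides of 0. Its brightest probe set read 580.3, 563 and 517 in mutants and 496, 503 and 552 in wild type (log2 difference 0.10, SE 0.11). By contrast another read 146, 141 and 151 in mutants and 132, 221 and 195 in wild type (-0.27, SE 0.19). In Sema6a, Sema6d and this last probe set, both wild-type arrays of raised 18S signal lay above wild-type replicate 1.

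Class 5 semaphorins carry thrombospondin repeats beside the sema domain. Sema5b read 237, 231 and 277 in mutants and 283, 269 and 315 in wild type, which overlapped narrowly (log2 difference -0.21, SE 0.13, interval -0.51 to 0.09). Sema5a gave 90.3 ± 27.7 in mutants and 99.3 ± 17.3 in wild type with one probe set, and 122 ± 34.3 in mutants and 116 ± 25.3 in wild type with the other, log2 differences of -0.14 (SE 0.21) and 0.04 (SE 0.23). Sema4b gave 181 ± 36.7 in mutants and 155 ± 41.9 in wild type (0.21, SE 0.22). Sema4a, a class 4 semaphorin of the immune system and retina, was above background on 2 arrays with one probe set and on 1 array with the other. Its differences were 0.00 (SE 0.19) and -0.07 (SE 0.39). Sema4f read 84.7, 98.3 and 35.5 in mutants, against 16.9, 89.1 and 107 in wild type, with 1 low array in each group. Its log2 difference of 0.16 (SE 0.55) moved to 1.23 with the 18S covariate and to 1.35 without wild-type replicates 2 and 3, where the low wild-type array is the only one left.

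**Figure D3:**
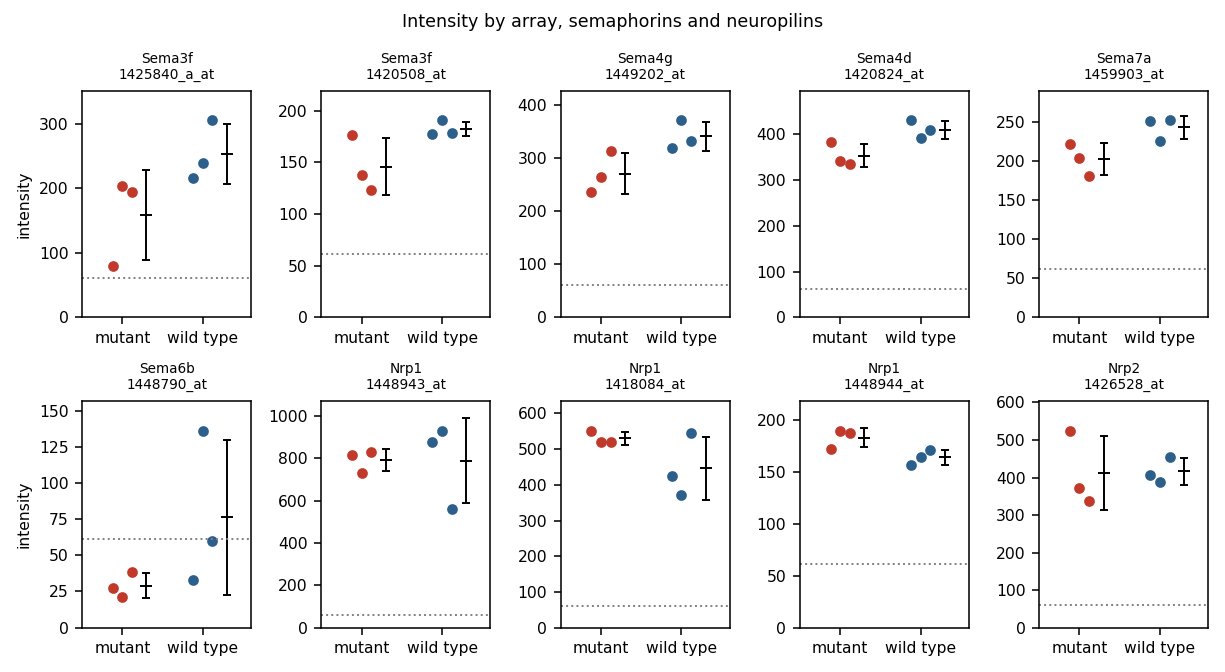
Linear intensity on each array for Sema3f, Sema4g, Sema4d, Sema7a, Sema6b, Nrp1 and Nrp2, with mutants in red on the left and wild type in blue on the right. Bars show mean ± SD of 3 arrays and the dotted line marks the background of 61.5; mutant points lie below all wild-type points in the panels of Sema3f, Sema4g, Sema4d and Sema7a, and in Sema6b a single wild-type array lies above the dotted line.

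Neither neuropilin passed the test, and the 3 probe sets of Nrp1 differed in how the arrays were ordered. Nrp1, which binds Sema3a and Vegfa, read 815, 732 and 827 in mutants and 876, 930.3 and 559 in wild type with its brightest probe set. With the next it read 552, 519.6 and 519 in mutants, against 425, 372 and 545 in wild type. With the dimmest it read 172, 190.0 and 187 in mutants, against 157, 165 and 171 in wild type, the member probe set whose mutant arrays were all above the wild-type arrays. The log2 differences were 0.04, 0.25 and 0.14 (SE 0.21, 0.16 and 0.11), in that order. Wild-type replicate 3 was the lowest wild-type array in the first probe set and the highest in the others. Without it the differences were -0.19, 0.40 and 0.17, and the limma adjusted p of each was 0.923. Nrp2, the co-receptor of Sema3f, read 525, 373 and 338 in mutants and 406, 387 and 456 in wild type. The mutant arrays spanned the whole wild-type range, and the log2 difference was -0.04 (SE 0.18, interval -0.47 to 0.40).

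All 11 plexin probe sets had overlapping groups, and their median log2 difference was -0.12. The sign of that median was not stable: it was 0.03 with the 18S covariate, 0.01 without wild-type replicates 2 and 3, 0.03 without mutant replicate 2 and 0.02 without wild-type replicate 3. The type A plexins transduce the class 3 signals. Plxna3 read 629, 568 and 378 in mutants and 635, 589 and 722 in wild type with the brighter probe set (log2 difference -0.32, SE 0.21), and its other probe set gave 0.01 (SE 0.17). Plxna2 read 346, 277 and 252 in mutants and 262, 292 and 478 in wild type (-0.19, SE 0.24), with wild-type replicate 3 above all others. Plxna1 read 159, 91.2 and 94.5 in mutants, against 111, 132 and 152 in wild type (-0.20, SE 0.22). Here mutant replicate 1 was the highest of the 6 arrays, while the other mutant arrays were below all wild-type ones.

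Plxnb2, a receptor of class 4 semaphorins needed for neural tube closure in mice, read 901, 1058 and 1014 in mutants and 1036, 905 and 1334 in wild type (-0.12, SE 0.17). Plxnb3, a receptor of Sema5a, read 164, 104 and 100.1 in mutants and 106, 156 and 37.3 in wild type, where replicate 3 was below background (0.39, SE 0.43). Plxnc1, the receptor of Sema7a, had 4 probe sets with differences from -0.25 to 0.21 (SE 0.14 to 0.25), 2 on each side of 0. Plxnd1, the endothelial plexin that binds Sema3e, read 420.3, 487 and 527 in mutants and 479.6, 431 and 418 in wild type (0.10, SE 0.13). The summed intensity of 7 endothelial marker genes overlapped between the groups as well, at 2159 to 2461 in mutants and 2044 to 2578 in wild type.

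Member probe sets had a wider spread within groups than the array as a whole. Among those above background on all arrays, the median within-group SD on the log2 scale was 0.24, against 0.17 over all such probe sets. Mutant replicate 3 was the lowest mutant array in 58.6% of these 29 members, and in 38% of all such probe sets. Wild-type replicate 3 was the highest wild-type array in 62.1% of them, and in 35.7% of all such probe sets. The same arrays were at the ends for neuron markers: 5 genes summed to 7378, 6177 and 5205 in mutants and to 6988, 6795 and 7952 in wild type. Neural progenitor markers had the same ends, at 7792, 8252 and 7276 in mutants and 8495, 8161 and 8820 in wild type. Wild-type replicate 3 alone was at its end for cranial mesenchyme, cranial motor neuron, sensory ganglion and head muscle markers. Mutant replicate 3 alone was for endothelium and macrophage markers, and neither for crest, epithelium and primitive red cell markers. The part of cell type content in these values was not tested. Of the 14 genes with several probe sets, 3 (Sema3a, Sema3f and Nrp1) had all of them on the same side of 0, dim ones included.

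The direction of many members also moved with the 18S signal. With it as a covariate, 10 of the 29 probe sets above background on all arrays changed sign, 34.5% of them, and 21.2% of all such probe sets did. Among them were Sema6a, a probe set of Sema6c, Sema6d, Plxna1 and Plxna2, all lower in mutants without the covariate and at 0.20, 0.11, 0.36, 0.03 and 0.08 with it. Others turned the opposite way, namely a probe set of Nrp1 (0.04 without and -0.07 with the covariate), one of Plxna3 (0.01 and -0.02) and Plxnd1 (0.10 and -0.01). Sema3f, Sema4g, Sema4d and Sema7a stayed negative, at -0.63 and -0.24 for the Sema3f probe sets, -0.24, -0.26 and -0.29. The raised 18S signal was present on 0 of 3 mutant arrays and on 2 of 3 wild-type arrays.

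**Figure D4:**
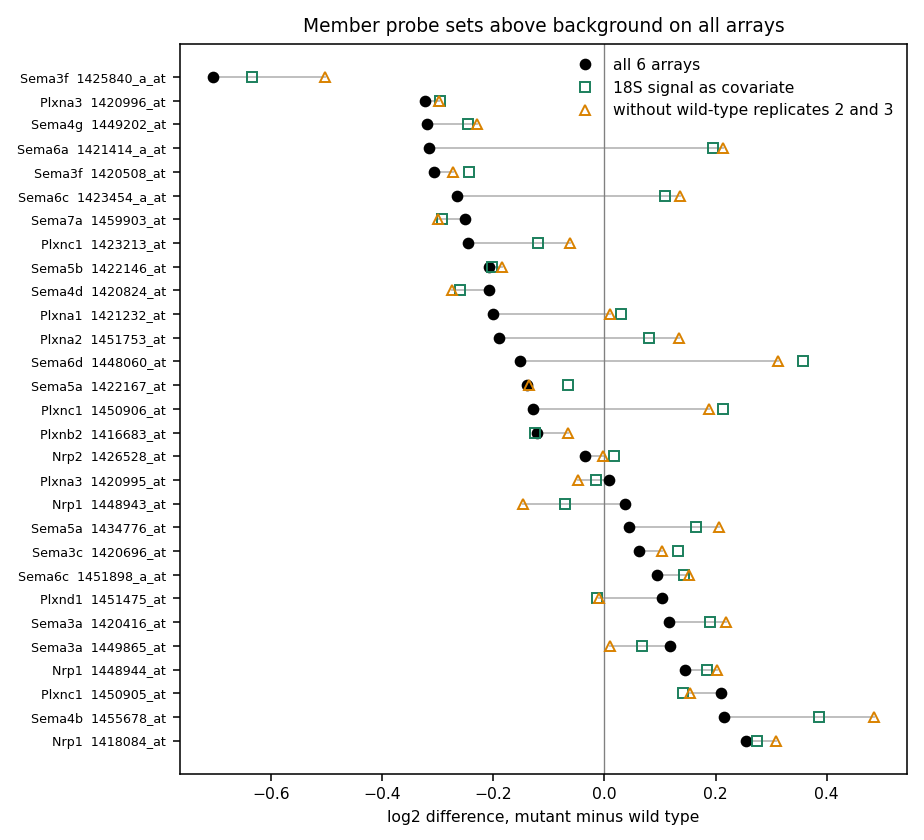
Log2 difference, mutant minus wild type, of the 29 member probe sets above background on all arrays, from all 6 arrays (black), with the 18S signal as a covariate (green squares) and without wild-type replicates 2 and 3 (orange triangles). Sema6a and Sema6d cross from negative to positive values, and both Sema3f probe sets, Sema4g, Sema4d and Sema7a stay below 0. For these last probe sets the triangles had to, since every mutant array lay below wild-type replicate 1.

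Upstream sequence was read for the members because Hoxb1 acts on DNA together with Pbx and Meis or Prep proteins. The 250 bases before annotated transcript starts (RefSeq, GRCm38.p6) were available in 32 windows of 22 of the 26 genes. Sema3b, Sema3f, Sema6a and Plxna1 had no window and were not searched. The pattern TGATNNAT, a form of the joint Hox and Pbx site, was searched on both strands and occurred in 1 of the 32 member windows, at Sema6d, and in 7.68% of all 32851 windows of that length. TGACAG, a form of the Meis and Prep site, occurred in 6 member windows (Plxna2, Sema4d, Sema6c and Sema7a), 18.8% of them, and in 15.9% of all windows. No printed window holds both patterns, so no matches overlap there. Those of Sema4g and Sema7a are shown because their arrays separated the groups, and that of Sema6d because it holds the joint pattern. Sema4d also separated the groups and had TGACAG in several windows, but these lie on the minus strand and are not printed. The printed windows run 5′ to 3′ on the plus strand, with pattern matches in capitals. They lie at chr19:44989094-44989343, chr9:57939862-57940111 and chr2:124653331-124653580.
Sema4g: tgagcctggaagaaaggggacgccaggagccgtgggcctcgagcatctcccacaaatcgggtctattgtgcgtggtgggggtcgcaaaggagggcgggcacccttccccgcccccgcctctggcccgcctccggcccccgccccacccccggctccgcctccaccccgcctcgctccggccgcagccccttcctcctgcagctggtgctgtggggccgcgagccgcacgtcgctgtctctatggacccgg
Sema7a: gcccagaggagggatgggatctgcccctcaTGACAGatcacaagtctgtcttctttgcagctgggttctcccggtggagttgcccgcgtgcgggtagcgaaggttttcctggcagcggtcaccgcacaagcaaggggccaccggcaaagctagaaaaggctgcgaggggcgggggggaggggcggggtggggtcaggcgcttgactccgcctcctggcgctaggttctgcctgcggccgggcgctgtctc
Sema6d: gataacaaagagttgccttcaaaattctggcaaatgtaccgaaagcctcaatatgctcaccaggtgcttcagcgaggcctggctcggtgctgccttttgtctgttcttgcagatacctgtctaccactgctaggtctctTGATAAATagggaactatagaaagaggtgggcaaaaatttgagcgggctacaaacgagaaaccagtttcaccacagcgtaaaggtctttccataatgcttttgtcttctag
The Sema4g window holds neither pattern. The first base of the Sema7a match lies 220 bases and that of the Sema6d match 111 bases before the start, and a match is a description of the letters, not a binding site.

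Other genes of semaphorin signalling were read through a list of 52 co-receptors, further neuropilin ligands and intracellular effectors, of which 46 genes had 79 probe sets. In limma 0 of the 79 passed an adjusted p of 0.05. At an unadjusted p under 0.05, 5 were higher and 8 lower in mutants, where 1.88% and 3.88% of all probe sets tested were. The 8 lower ones were above background on all arrays. Of the 5 higher ones, only those of Gsk3b and Rnd2 were. Those of Cdk5 and Pgf were above it on 4 and 2 arrays, and that of Itgb1 on none. Their median log2 difference was -0.07, beside -0.02 over all probe sets tested. With the 18S signal as a covariate 4 were higher and 1 lower. Of all probe sets tested, 4.04% then had an unadjusted p under 0.05 in either direction. Without mutant replicate 3 there were 2 higher and 3 lower, beside 4.8% of all probe sets in either direction. Without wild-type replicate 3 there were 4 higher and 3 lower, beside 5.14%. Without mutant replicate 2 there were 1 higher and 6 lower, beside 4.68%. Without wild-type replicate 1 there were 1 higher and 9 lower, beside 6.11%, but there genotype and raised 18S signal cannot be told apart. Groups did not overlap in 7 probe sets higher and 11 lower in mutants, 22.8% of the 79 beside 12% of all probe sets tested.

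Of the 6 genes of smallest p, 5 had lower mutant means. Dpysl5, a collapsin response mediator protein of the family that relays Sema3a signals, read 346, 429.7 and 282 in mutants, against 472, 554 and 644 in wild type. Its log2 difference was -0.64 (SE 0.19, limma adjusted p = 0.825). Dpysl4, of the same family, read 139, 158 and 116 in mutants and 187, 195 and 288 in wild type with its dimmest probe set (-0.62, SE 0.19, limma adjusted p = 0.833). Its further probe sets gave -0.50 (SE 0.17) and -0.31 (SE 0.25). Sh3bp1, a Rac inactivator that acts downstream of Plxnd1, read 76.1, 89.3 and 126 in mutants and 152, 156 and 163 in wild type (-0.64, SE 0.17, limma adjusted p = 0.783). In Dpysl5, Sh3bp1 and 2 of the 3 probe sets of Dpysl4 every mutant array was below every wild-type array.

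Sdc3, a heparan sulphate proteoglycan, read 571, 531 and 542 in mutants and 667, 677 and 736 in wild type (-0.33, SE 0.11, limma adjusted p = 0.833), and its other probe sets gave -0.37 (SE 0.19) and -0.49 (SE 0.39). Cntn2, an adhesion protein of early axons, read 208, 145 and 156 in mutants and 198, 266 and 295 in wild type, with overlapping groups (-0.54, SE 0.19, limma adjusted p = 0.833). Mutant means were lower in 54.2% of all probe sets tested, and in a larger share for several marker lists. They were lower in 10 of 13 probe sets of neuron markers and 11 of 13 of cranial mesenchyme markers, with 0 of either list at an unadjusted p under 0.05. They were lower in 5 of 5 probe sets of cranial motor neuron markers (1 at an unadjusted p under 0.05, Phox2a), 5 of 6 of crest markers (2, Sox10 among them) and 7 of 12 of neural progenitor markers (2, Sox3 among them). They were also lower in 7 of 8 probe sets of endothelium markers, 6 of 7 of macrophage and 2 of 3 of sensory ganglion markers. The share was smaller for markers of primitive red cells (2 of 8), epithelium (2 of 6, 1 at an unadjusted p under 0.05) and head muscle (1 of 4). Of all probe sets tested, 3.88% were lower at an unadjusted p under 0.05. The part of these cell types in the differences of the signalling genes was not tested.

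In the other direction, Cdk5, a kinase that phosphorylates collapsin response mediators, read 173, 121 and 169 in mutants and 54.4, 52.4 and 109 in wild type with one probe set (1.00, SE 0.27, limma adjusted p = 0.765). Only 1 of the 3 wild-type arrays was above background there. Its other probe set read 498, 439 and 387 in mutants and 473, 487 and 418 in wild type (-0.06, SE 0.14), so the probe sets of Cdk5 did not show the same difference. Vegfa, named here after its values were seen, gave 262 ± 14.3 in mutants and 224 ± 14.6 in wild type (0.21, SE 0.11, limma adjusted p = 0.833) without overlap, and its other probe set gave 0.04 (SE 0.13).

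**Figure D5:**
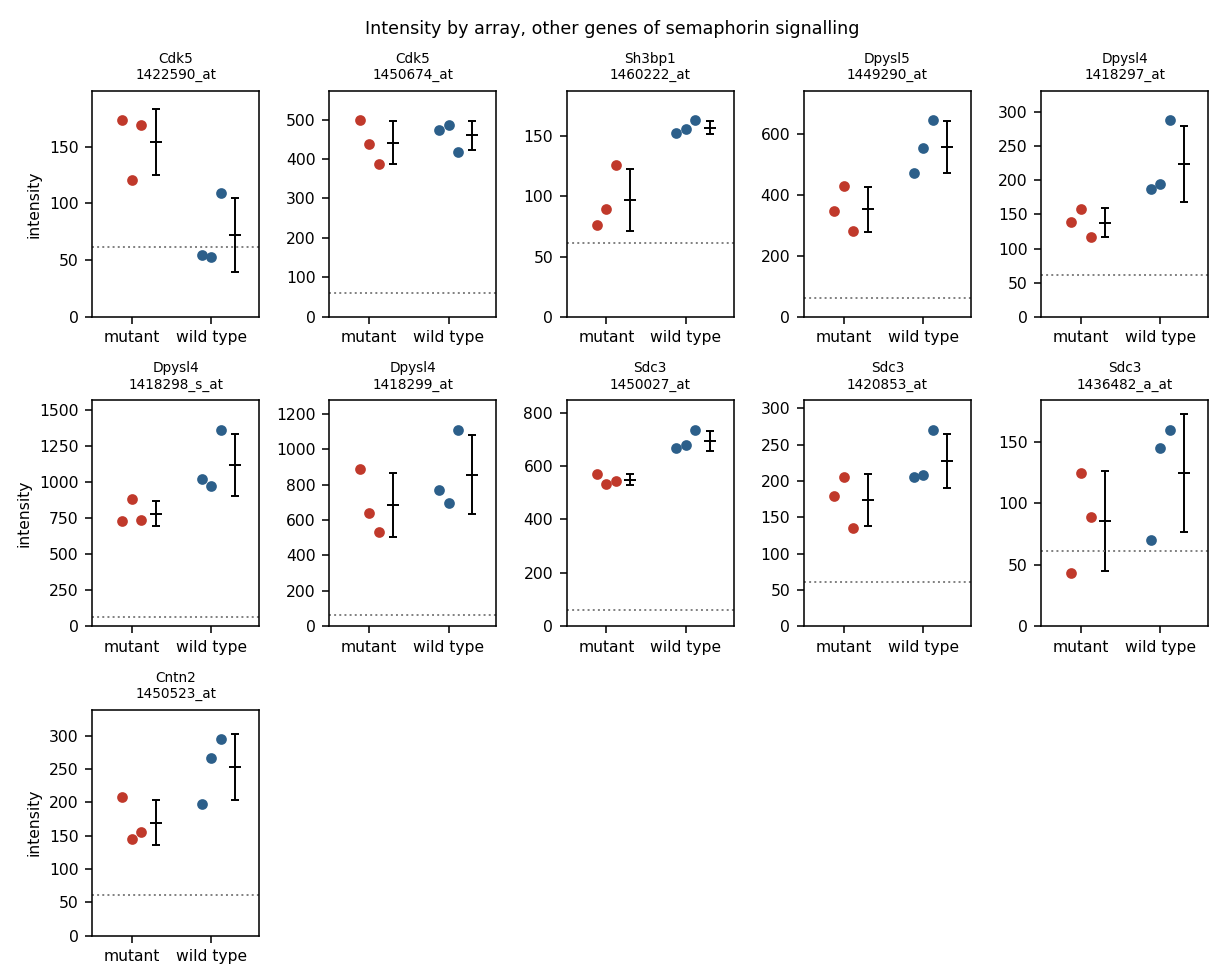
Linear intensity on each array for the 6 genes of the signalling list with the smallest p, all probe sets of each, with mutants in red on the left and wild type in blue on the right. Bars show mean ± SD of 3 arrays and the dotted line the background of 61.5; mutants lie below wild type for Sh3bp1 and Dpysl5, and the panels of Cdk5 differ from each other.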

How the data were processed

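Total RNA from pooled rhombomere 4 segments was hybridised to Affymetrix 430A arrays, 1 array per pool. The deposited table holds 1 linear intensity per probe set and array. Of tools, the submitters' processing notes list affy; no source used here gives the expression algorithm or background correction. On the evidence of the deposited values the authors scaled each array, since the mean with 2% trimmed at each end was 500.0 on all arrays. Symbols came from the platform annotation, and all 48 member symbols matched a RefSeq gene table through the Entrez identifier.

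After leaving out 64 control probe sets, log2(intensity + 16) was fitted by linear models (limma version 3.58.1 under R version 4.3.3; lmFit, then eBayes, 2-sided, no covariate), with Benjamini-Hochberg adjustment over 22626 probe sets and a threshold of 0.05. The step was tested on simulated data. The planted differences there were larger than that of any member, so smaller changes were not covered. The number of arrays limits the precision: the median SE of a member was 0.19.

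Members and lists were chosen with earlier results of these data known. Every member gene is named; each array's value is given for probe sets with an unadjusted p under 0.05 and for genes whose groups do not overlap in the probe set of highest mean, and, chosen after the values were seen, for further members. Up to 6 genes of smallest p stand for the signalling list. The titles number replicates 1 to 3 in both groups, and the codes in the titles also match between the groups. Deviations of same-numbered arrays correlated at 0.05, -0.02 and 0.04, and those of other pairs at -0.08 to 0.04. Values this small do not decide whether arrays were paired. The numbers were not taken as pairs in the main fit, and a replicate block was run as an alternative. Alternatives covered the normalization, filter, pseudocount (1 and 64), variance model, array weights, replicate block, 18S signal and each array left out.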

Additional observations from a re-analysis of the deposited data

How the results depend on the processing

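No member probe set passed an adjusted p of 0.05 in limma under any alternative run. At an unadjusted p under 0.05, 0 members were higher and 0 lower with the settings used throughout. There was 1 higher with the 18S covariate and 1 without wild-type replicates 2 and 3 (Sema4f in both), where the lone wild-type array is assumed to vary like the mutants. There was 1 lower with the dimmest 1 in 3 probe sets left out (Sema4g), 2 with array weights (Sema3f and Sema4d), 1 with the replicate block (Sema3f) and 1 with a pseudocount of 64 (Sema4g). In that order, 6.85%, 9.25%, 6.02% and 6.39% of all probe sets fitted had such a p in either direction. Leaving out 1 array gave 0 to 1 higher and 0 to 4 lower. The median log2 difference of the members was -0.02, moved to -0.12 with the dimmest 1 in 3 probe sets left out, where 29 members remain, and ran from -0.10 to 0.0038 with 1 array left out. It was above 0 with quantile normalization (0.03), median centring (0.04), the 18S covariate (0.07) and without wild-type replicates 2 and 3 (0.05), all within the spread of the array medians. In the signalling list, the 5 higher became 3 with the dimmest 1 in 3 probe sets left out, 3 with trend and robust settings, 3 with the replicate block and 3 with 1 probe set per gene, and 1 to 4 with 1 array left out. The 8 lower became 5 with median centring, 1 with the 18S covariate, 1 without wild-type replicates 2 and 3 and 5 with 1 probe set per gene, and 3 to 9 with 1 array left out. The difference of the brightest Nrp1 probe set was 0.04 and turned negative at -0.077 with array weights, -0.071 with the 18S covariate and -0.15 without wild-type replicates 2 and 3, and ran from -0.19 to 0.17 with 1 array left out. The cause was not tested. The replicate block changed no call of a member at the adjusted threshold. Of all probe sets tested, 1303 had an unadjusted p under 0.05, 2093 with array weights and 1975 without mutant replicate 1.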
